A study of Homo sapiens with 6 samples.

Results

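Levels of 9 genes of the urea cycle and of glutamine, glutamate, aspartate and asparagine metabolism were compared between cells carrying a short hairpin RNA (shRNA) against HYOU1 and cells carrying a control shRNA. The 9 genes were CPS1, ASS1, ASL, ARG2, GLUL, GLUD1, GOT1, GOT2 and ASNS, taken by name from a deposited table of 58735 genes, and 8 of them were abundant enough to be tested. RNA sequencing of polyadenylated RNA gave 6 libraries. In the labels 3 are named shHYOU1, with HYOU1 knockdown as the treatment, and 3 are named shControl. All 6 carry the label Hep3B, the name of a human liver cancer line. HYOU1 is a chaperone of the endoplasmic reticulum. The labels give neither the hairpin sequence nor the number of hairpins, neither the time after delivery nor whether cells were selected, pooled or cloned. They also do not say whether the 3 libraries of a group came from separate cultures, so p-values below reflect how these libraries scatter, and that scatter could be technical.

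The urea cycle turns ammonia into urea. CPS1 opens it in mitochondria by making carbamoyl phosphate, ASS1 joins citrulline with aspartate, ASL splits the product into arginine and fumarate, and an arginase cleaves arginine into urea and ornithine. Around the cycle, GLUD1 interconverts glutamate and 2-oxoglutarate with ammonia, GLUL fixes ammonia into glutamine, GOT1 in the cytosol and GOT2 in mitochondria move amino groups between glutamate and aspartate, and ASNS makes asparagine from aspartate and glutamine. Periportal hepatocytes are known for the full cycle, and ASNS is known as a target of ATF4, the transcription factor of the amino acid and endoplasmic reticulum stress responses.

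The promoters of 4 of these genes are shown, CPS1 and ARG2 because they were the members that passed the test, ASNS and GOT1 because they hold letters of a site known for ATF4 with a C/EBP partner. Each runs from 250 bases before to 50 bases after a transcription start, from RefSeq on GRCh38.p14, in the direction of transcription, and matches to 1 of 3 motifs searched on both strands are in capitals. All 9 genes were matched, with 14 windows between them. The motif TGATGNAA (C/EBP-ATF) was found in 3.62% of 35116 promoter windows of this length, TGACGTCA (the cyclic AMP response element, CRE) in 1.85% and TTGCGNAA (C/EBP) in 0.891%. The matches do not overlap each other in the windows shown. The CPS1 window is chr2:210477435-210477734 on the plus strand, 1 of 3 windows of that gene and the one at its start in the deposited table. The windows of the others are chr14:67619670-67619969 on the plus strand for ARG2, chr10:99430575-99430874 on the minus strand for GOT1, and chr7:97872359-97872658 on the minus strand, 1 of 2 windows, for ASNS. Their RefSeq starts lie 122 bases (ARG2), 945 bases (GOT1) and 134 bases (ASNS) from the gene starts in the deposited table. Positions of matches are counted from the RefSeq start.
CPS1: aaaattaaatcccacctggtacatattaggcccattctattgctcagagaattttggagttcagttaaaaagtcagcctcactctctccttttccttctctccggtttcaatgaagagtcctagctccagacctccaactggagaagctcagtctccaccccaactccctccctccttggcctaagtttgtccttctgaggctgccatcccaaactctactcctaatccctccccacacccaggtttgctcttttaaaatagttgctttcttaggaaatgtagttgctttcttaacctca
ARG2: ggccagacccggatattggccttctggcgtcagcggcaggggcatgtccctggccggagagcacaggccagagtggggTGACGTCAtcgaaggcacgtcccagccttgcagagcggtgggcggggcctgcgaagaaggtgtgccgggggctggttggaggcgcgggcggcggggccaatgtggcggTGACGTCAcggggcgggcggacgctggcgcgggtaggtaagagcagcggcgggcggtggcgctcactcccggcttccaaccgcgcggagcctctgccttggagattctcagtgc
GOT1: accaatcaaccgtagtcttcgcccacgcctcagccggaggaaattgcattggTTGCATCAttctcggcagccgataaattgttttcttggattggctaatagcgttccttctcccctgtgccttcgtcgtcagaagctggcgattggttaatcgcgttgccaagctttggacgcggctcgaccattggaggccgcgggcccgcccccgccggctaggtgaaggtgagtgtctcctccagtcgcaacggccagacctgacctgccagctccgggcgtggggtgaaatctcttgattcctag
ASNS: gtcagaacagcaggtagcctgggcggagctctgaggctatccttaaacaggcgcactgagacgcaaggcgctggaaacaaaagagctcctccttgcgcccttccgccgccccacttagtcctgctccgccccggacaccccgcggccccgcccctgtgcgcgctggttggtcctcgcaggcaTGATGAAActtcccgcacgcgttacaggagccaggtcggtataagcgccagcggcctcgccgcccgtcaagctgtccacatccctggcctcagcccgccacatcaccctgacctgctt
None of the 3 windows of CPS1 held a match. ARG2 held the CRE letters at 172 and at 64 bases before the start. The C/EBP-ATF letters began 68 bases before the start in ASNS, on the strand of the gene, and 198 bases before it in GOT1, on the other strand. A match is a description of the letters and not of binding.

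The libraries held 17537179, 18233240 and 17603796 fragments in HYOU1 shRNA replicates 1, 2 and 3, and 16893091, 18210661 and 17759595 in control shRNA replicates 1, 2 and 3. Values are FPKM as deposited, fragments scaled by gene length and by a total for each library. That total was not the sum of the recovered fragments. It was 17494124 for HYOU1 shRNA replicate 3, below its fragments, and 18736631 for control shRNA replicate 2, above its fragments. HYOU1 itself was at 2.35, 2.32 and 2.37 FPKM with HYOU1 shRNA, against 37.6, 58.2 and 59.5 FPKM with control shRNA. Each library thus matched the shRNA part of its label. The log2 fold change of HYOU1 was -4.38 with a standard error (SE) of 0.20 (limma, adjusted p = 0.00119). Markers of hepatocytes were scarce under the liver label: 2 of 18, HPD and HNF4A, reached a mean of 1 FPKM, and ALB, APOA2, APOB and TTR were at 0 in every library. AFP had 3 fragments in all libraries together. Whether the cells are Hep3B was not tested. Of biliary epithelial markers 5 of 7 reached it, of fibroblast markers 4 of 7, of renal tubule markers 1 of 5, and none of the 7 immune or 5 endothelial markers did. Control replicate 1 stood apart from its group, with correlations across genes of 0.906 and 0.892 to control replicates 2 and 3, against 0.971 between those 2. Results are therefore also given without it and after a correction for the GC content of the genes.

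With HYOU1 shRNA 2 of the 8 tested enzymes fell, CPS1 and ARG2, and none rose. The other 6 did not pass the test. Genes counted as called had a Benjamini-Hochberg adjusted p under 0.05 from limma over all 12448 genes that averaged 1 FPKM or more, and 12.3% of those genes were called. At an unadjusted p under 0.05 (limma), 1 member, GLUD1, was higher and 2 were lower. The share of all tested genes at that unadjusted p is not given here, so such counts, also for the lists below, have no background. With voom on the recovered fragments none of the members rose and 2 fell, where voom called 1806 of all 12448 tested genes. The median log2 fold change was -0.20 over the 8 enzymes and 0.04 over all tested genes. In 6 of the 8 the libraries of the groups did not overlap, with HYOU1 shRNA lower in 4 and higher in 2, where 44.4% of all tested genes had no overlap. Without control replicate 1, 6 of the 8 were called, with 2 higher and 4 lower, beside 44.3% of all tested genes. After the GC correction the same 6 were called, beside 40.6% of all tested genes.

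**Figure D1:**
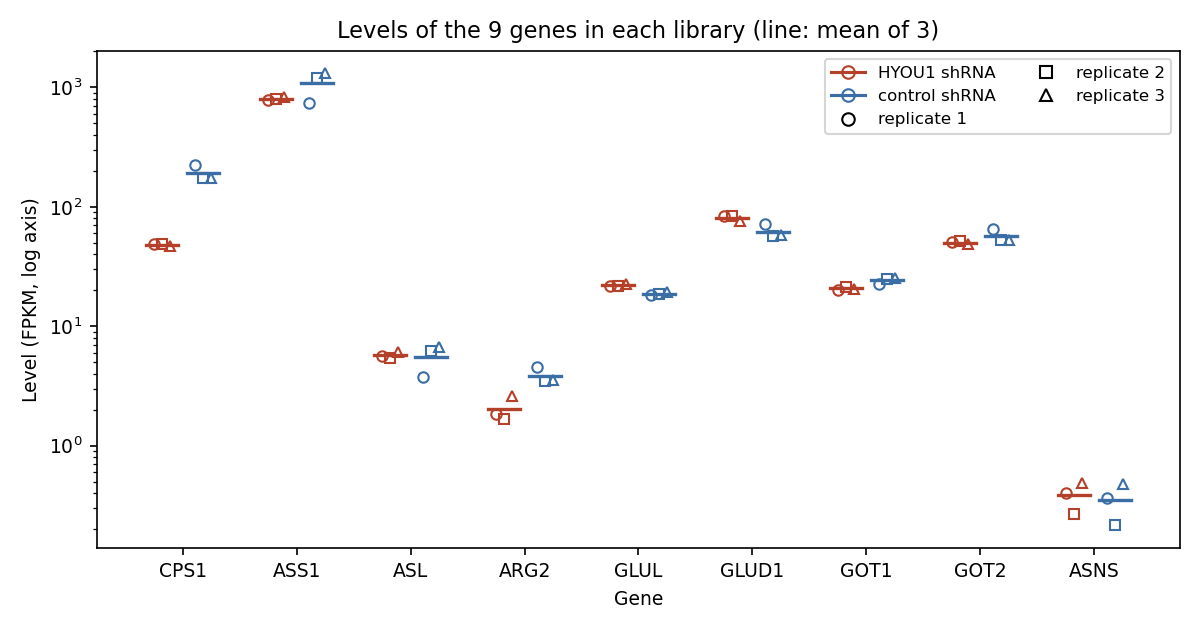
Levels of the 9 genes in FPKM on a log axis, with 1 symbol per library, HYOU1 shRNA in red on the left of each pair and control shRNA in blue on the right, and a line at the mean of 3. CPS1 shows the widest gap, with 47.0 to 49.2 FPKM with HYOU1 shRNA and 173.1 to 223.1 FPKM with control shRNA, and the circle of control replicate 1 lies apart from the other control symbols for ASS1 and ASL.

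CPS1 had the largest change of the 8. CPS1 (ENSG00000021826, chromosome 2, 210477682 to 210679107 on GRCh38, plus strand) had 49.2, 48.5 and 47.0 FPKM with HYOU1 shRNA, against 223.1, 173.1 and 175.2 FPKM with control shRNA. The groups stood far apart, and the HYOU1 shRNA libraries lay close together. Means were 48.2 ± 1.13 FPKM with HYOU1 shRNA and 190.5 ± 28.3 FPKM with control shRNA (SD, n = 3 each), a 3.95-fold lower level. On the log2 scale CPS1 fell by 1.97 (SE 0.13, limma, adjusted p = 0.00224), rank 29 among the 704 genes that fell. These values rest on 9491, 9609 and 8859 fragments with HYOU1 shRNA, and on 41034, 34947 and 33871 with control shRNA. The log2 fold change was -1.85 without control replicate 1 (adjusted p = 2.36e-06), and CPS1 was called in each of the 20 alternative settings, between -2.07 and -1.85. In bulk RNA, fewer cells that express a gene and less of its RNA per cell cannot be told apart.

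The summed levels of 4 of the 6 lists of cell type markers did not overlap between the groups either. No share was computed for sums of other lists, so this count has no background. Of all single genes tested, 44.4% had no overlap, so a single marker without overlap is common in these data. The 18 hepatocyte markers summed to 8.65 to 9.77 FPKM with HYOU1 shRNA and to 9.85 to 13.8 FPKM with control shRNA, a sum carried by few genes. Of the markers of this list under a mean of 1 FPKM, FGB, FGA, FGG and TAT were lower without overlap. SERPINA1 alone was higher without overlap. FGB had 0.103, 0.241 and 0.106 FPKM with HYOU1 shRNA, against 1.38, 1.42 and 1.21 FPKM with control shRNA. SERPINA1 had 0.593, 0.400 and 0.443 FPKM with HYOU1 shRNA, against 0.120, 0.0762 and 0.0682 FPKM with control shRNA. Biliary epithelial markers summed to 89.9 to 94.1 FPKM with HYOU1 shRNA and to 77.8 to 85.2 FPKM with control shRNA. Of these, KRT7 had 50.8, 53.2 and 56.8 FPKM with HYOU1 shRNA, against 30.6, 44.2 and 48.1 FPKM with control shRNA, while KRT19 had 2.46, 3.38 and 1.13 FPKM with HYOU1 shRNA, against 11.6, 2.86 and 2.39 FPKM with control shRNA. KRT7 did not overlap between the groups, and KRT19 did. EPCAM had 3.86, 3.46 and 3.97 FPKM with HYOU1 shRNA, against 3.16, 1.74 and 2.04 FPKM with control shRNA, without overlap, while CD24 and SOX9 overlapped. The rule for naming genes given below does not cover the single markers named here. Renal tubule markers, of which AQP1 alone reached a mean of 1 FPKM, summed to 3.61 to 4.35 FPKM with HYOU1 shRNA and to 1.40 to 2.77 FPKM with control shRNA. Endothelial markers, all under a mean of 1 FPKM, summed to 0.179 to 0.221 FPKM with HYOU1 shRNA and to 0.514 to 0.654 FPKM with control shRNA. Immune markers overlapped, at 0.611 to 0.941 FPKM with HYOU1 shRNA and 0.602 to 1.83 FPKM with control shRNA. The sums of fibroblast markers also overlapped, at 10.5 to 11.1 FPKM with HYOU1 shRNA and 10.4 to 12.4 FPKM with control shRNA, but single fibroblast markers did not. COL1A1 was higher, at 6.53, 5.61 and 6.83 FPKM with HYOU1 shRNA, against 2.33, 3.20 and 3.27 FPKM with control shRNA. DCN was lower, at 1.56, 1.81 and 1.45 FPKM with HYOU1 shRNA, against 4.41, 3.82 and 4.49 FPKM with control shRNA, and PDGFRB was also lower without overlap. The part of these markers in the CPS1 result was not tested. Fragments of mitochondrial genes made up 3.39% to 3.84% with HYOU1 shRNA and 4.96% to 7.59% with control shRNA, and their part was not tested either.

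Across the 6 libraries the genes most like CPS1 were TSHZ2, TLL1 and AKR1C1. Likeness was the root-mean-square distance between log2 values centred on the mean of each gene, over 10644 protein-coding genes, and it was 0.087, 0.102 and 0.119 for these 3 genes. TSHZ2, a zinc finger protein, had 0.586, 0.480 and 0.563 FPKM with HYOU1 shRNA, against 3.08, 2.31 and 2.25 FPKM with control shRNA. TLL1, a metalloprotease that processes procollagen, had 1.31, 1.12 and 1.31 FPKM with HYOU1 shRNA, against 6.39, 4.31 and 4.41 FPKM with control shRNA. AKR1C1, a reductase of steroids and carbonyls, had 2.40, 2.91 and 2.77 FPKM with HYOU1 shRNA, against 11.2, 9.83 and 10.4 FPKM with control shRNA. All 3 were lower with HYOU1 shRNA and were chosen for the likeness, so no test is given.

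Downstream of CPS1 in the cycle, ASS1 and ASL did not pass the test. ASS1 (ENSG00000130707, chromosome 9, 130444929 to 130501274, plus strand) was the most abundant of the 9 genes in every library, at rank 21 among protein-coding genes by mean FPKM. It had 779.8, 801.8 and 830.2 FPKM with HYOU1 shRNA, against 739.0, 1190.5 and 1312.3 FPKM with control shRNA. Control replicate 1 lay below all HYOU1 shRNA libraries and control replicates 2 and 3 lay above them, so the groups overlapped. ASS1 had a log2 fold change of -0.38 (SE 0.22, adjusted p = 0.271). Without control replicate 1 it was -0.64 (adjusted p = 0.000239), and after the GC correction -0.59 (adjusted p = 0.00152).

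ASL (ENSG00000126522, chromosome 7, 66075798 to 66093558, plus strand) had 5.63, 5.45 and 6.12 FPKM with HYOU1 shRNA, against 3.76, 6.18 and 6.75 FPKM with control shRNA. The HYOU1 shRNA libraries again lay between control replicate 1 and the other control libraries. ASL had a log2 fold change of 0.08 (SE 0.23, adjusted p = 0.824). It was -0.17 without control replicate 1 (adjusted p = 0.165) and -0.19 after the GC correction (adjusted p = 0.0683), so no direction can be given. ASS1 and ASL had the highest GC content of the 9 genes, at 57.4% and 59.4% of the longest transcript. In control replicate 1 they stood at 0.591 and 0.581 of the mean of control replicates 2 and 3, against 1.28 for CPS1, whose GC content was 43.8%. GLUD1, at 46.4%, stood at 1.25, ARG2, at 47.1%, at 1.29, GOT2, at 50.4%, at 1.25 and GOT1, at 52.8%, at 0.899. GLUL, at 44.3%, stood at 0.975, so the ratio did not follow GC content in every member. ASNS, at 47.0%, stood at 1.07, from only 28, 18 and 38 fragments in control replicates 1, 2 and 3. The part of GC content in these ratios was not tested.

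**Figure D2:**
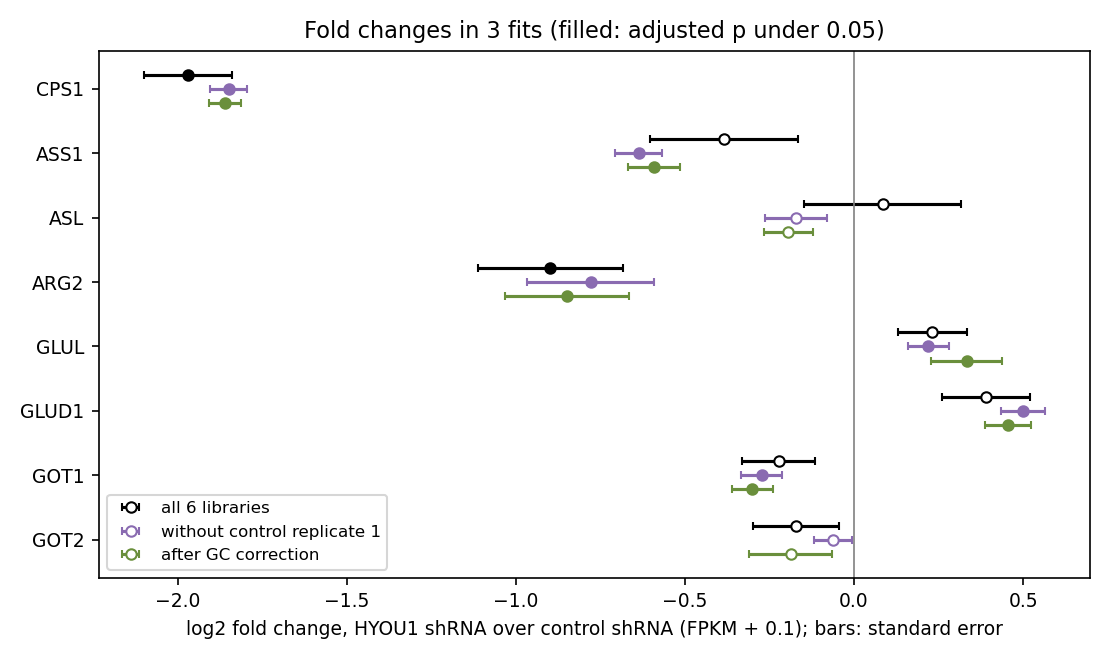
Log2 fold changes of the 8 tested genes, HYOU1 shRNA over control shRNA on log2(FPKM + 0.1), with bars of 1 standard error, for all 6 libraries in black, without control replicate 1 in purple and after GC correction in green. Filled symbols had an adjusted p under 0.05, which held in all 3 fits for CPS1 and ARG2, and ASL lies on either side of 0.

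ARG2, the mitochondrial arginase, also fell, at a low level. ARG2 (ENSG00000081181, chromosome 14, 67619798 to 67651720, plus strand) had 1.85, 1.67 and 2.62 FPKM with HYOU1 shRNA, against 4.53, 3.49 and 3.55 FPKM with control shRNA. The groups did not overlap, and HYOU1 shRNA replicate 3 came nearest to the controls. Means were 2.05 ± 0.509 FPKM with HYOU1 shRNA and 3.86 ± 0.585 FPKM with control shRNA (SD, n = 3 each), a 1.88-fold lower level. The fold change of ARG2 was -0.90 on the log2 scale (SE 0.21, limma, adjusted p = 0.0431), from 80, 74 and 111 fragments with HYOU1 shRNA and 187, 158 and 154 with control shRNA.

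The call of ARG2 was near the threshold. It held in 11 of 19 alternatives, at -0.78 without control replicate 1 (adjusted p = 0.0106) and at -0.85 after the GC correction (adjusted p = 0.0106). It was lost without any 1 of the other libraries: adjusted p was 0.163, 0.166 and 0.0808 without HYOU1 shRNA replicates 1, 2 and 3, and 0.0946 and 0.0725 without control replicates 2 and 3. VTI1B, a membrane fusion protein gene on the opposite strand, covers 44.2% of the main ARG2 transcript, and no source used here says whether counting used strand. VTI1B had 6.64, 6.37 and 6.74 FPKM with HYOU1 shRNA, against 7.02, 6.52 and 6.31 FPKM with control shRNA, a log2 fold change of -0.0067 (adjusted p = 0.973). Its groups overlapped.

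GLUD1 and GLUL, the enzymes that handle free ammonia with glutamate, were higher in every HYOU1 shRNA library but did not pass the test. GLUD1 (ENSG00000148672, chromosome 10, 87050486 to 87094866, minus strand) had 83.1, 83.4 and 75.6 FPKM with HYOU1 shRNA, against 71.4, 56.5 and 57.6 FPKM with control shRNA. The groups did not overlap, and control replicate 1 was the nearest to the HYOU1 shRNA libraries. GLUD1 differed by 0.39 on the log2 scale (SE 0.13, adjusted p = 0.0954). It was 0.50 without control replicate 1 (adjusted p = 0.000605) and 0.46 after the GC correction (adjusted p = 0.00271). Fragments of GLUD1 can be shared with near-identical copies: the pseudogene GLUD1P3 had 2.01, 1.91 and 1.78 FPKM with HYOU1 shRNA, against 3.36, 2.54 and 3.04 FPKM with control shRNA. Its log2 fold change was -0.62 (adjusted p = 0.0545), opposite in sign to that of GLUD1. The 5 pseudogenes of GLUD1 summed to 4.65% of the GLUD1 level.

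GLUL (ENSG00000135821, chromosome 1, 182381704 to 182392206, minus strand) had 21.9, 21.7 and 22.4 FPKM with HYOU1 shRNA, against 18.4, 18.5 and 19.3 FPKM with control shRNA. Both groups were narrow and did not overlap, with means of 22 ± 0.374 FPKM with HYOU1 shRNA and 18.7 ± 0.458 FPKM with control shRNA (SD, n = 3 each). GLUL differed by 0.23 on the log2 scale (SE 0.10, adjusted p = 0.175). Here control replicate 1 did not stand apart, at 0.975 of the mean of the other 2 controls. Adjusted p was 0.0192 without control replicate 1, with the fold change at 0.22, and 0.0414 after the GC correction, at 0.33.

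The aspartate aminotransferases GOT1 and GOT2 lay slightly lower with HYOU1 shRNA and neither passed the test. GOT1 (ENSG00000120053, chromosome 10, 99396870 to 99431569, minus strand) had 20.3, 21.3 and 20.7 FPKM with HYOU1 shRNA, against 22.6, 25.0 and 25.2 FPKM with control shRNA. Its libraries did not overlap between the groups, and its log2 fold change was -0.22 (SE 0.11, adjusted p = 0.212), and without control replicate 1 it was -0.27 (adjusted p = 0.00692). GOT2 (ENSG00000125166, chromosome 16, 58707131 to 58734357, minus strand) had 50.4, 51.5 and 48.9 FPKM with HYOU1 shRNA, against 65.7, 52.3 and 52.6 FPKM with control shRNA. Control replicate 1 was the high library of GOT2, and the other 2 controls lay just above the HYOU1 shRNA libraries. GOT2 had a log2 fold change of -0.17 (SE 0.13, adjusted p = 0.394), and -0.062 without control replicate 1 (adjusted p = 0.400).

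ASNS was low in both groups, under the minimum of the test but detected in every library. ASNS (ENSG00000070669, chromosome 7, 97852118 to 97872542, minus strand) had 0.401, 0.269 and 0.488 FPKM with HYOU1 shRNA, against 0.368, 0.216 and 0.475 FPKM with control shRNA. The groups overlapped, with means of 0.386 ± 0.110 FPKM with HYOU1 shRNA and 0.353 ± 0.130 FPKM with control shRNA (SD, n = 3 each), against 0.0395 FPKM at most for 3 fragments. When genes from 0.1 FPKM were tested, its log2 fold change was 0.12 (adjusted p = 0.864). The values rest on 32, 22 and 38 fragments with HYOU1 shRNA and on 28, 18 and 38 with control shRNA.

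In the annotation, another gene on the same strand, AC079781.5 (ENSG00000284707), shares exon bases with 13 of the 14 exons of the main ASNS transcript, which is 2356 bases long, and 1985 of those bases, 84.3%, are shared. AC079781.5 itself had 1, 2 and 1 fragments with HYOU1 shRNA and none with control shRNA. No source used here says how the counting treated bases that belong to more than 1 gene. Among 148 protein-coding genes whose main transcript shares at least 90% of its bases on the same strand only, 5 reached a mean of 1 FPKM (3.38%), and the median level was 0.00585 FPKM. From 50% to under 90% shared, the range that holds ASNS, 59 of 206 genes did (28.6%), with a median of 0.178 FPKM. Under 50% shared on the same strand only, 447 of 756 genes did (59.1%), with a median of 1.83 FPKM. With no shared bases 4708 of 9253 genes did (50.9%), with a median of 1.14 FPKM. Where at least 50% was shared on the opposite strand only, 74 of 159 genes did (46.5%). The part of the shared exons in the low ASNS value was not tested, and the value gives no measure of ASNS transcripts free of this overlap. ASL shares 26.3% of its main transcript on the same strand with AC068533.4, which was at 0 in every library.

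**Figure D3:**
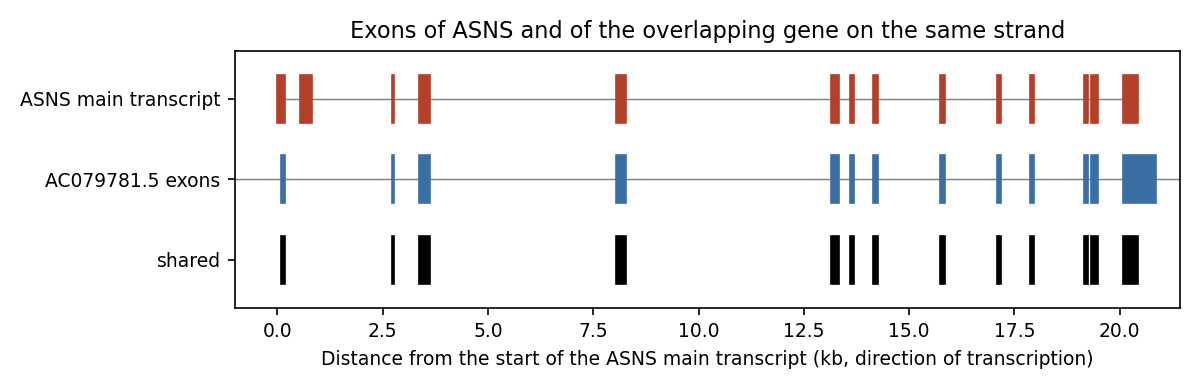
Exons of the main ASNS transcript in red, exons of AC079781.5 on the same strand in blue and the bases they share in black, by distance in kilobases from the start of the ASNS transcript in the direction of transcription. The black bars fall in 13 of 14 ASNS exons, and further exons of AC079781.5 lie upstream, outside the window.

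By mean level per length, the order with HYOU1 shRNA was ASS1, GLUD1, GOT2, CPS1, GLUL, GOT1, ASL, ARG2 and ASNS, in which only GOT2 and CPS1 overlapped as neighbours. With control shRNA it was ASS1, CPS1, GLUD1, GOT2, GOT1, GLUL, ASL, ARG2 and ASNS, in which GLUD1 overlapped with GOT2 and ASL with ARG2. CPS1 thus stood above GLUD1 and GOT2 in all control libraries and below GLUD1 in all HYOU1 shRNA libraries. GLUL and GOT1 also changed places, each without overlap with the other within a group.

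Of the 6 other urea cycle genes listed, 2 had no fragment in any library and 2 reached the minimum for the test. OTC, which joins carbamoyl phosphate to ornithine, and SLC25A2, an ornithine carrier, were the genes without a fragment, and 3 fragments equalled 0.102 and 0.124 FPKM in the library where they weighed most. ARG1, the liver arginase, had 4 fragments in all libraries together. NAGS, which makes the activator of CPS1, had 0.970, 0.752 and 0.871 FPKM with HYOU1 shRNA, against 0.187, 0.681 and 0.790 FPKM with control shRNA, below the minimum for the test. SLC25A15, the main mitochondrial ornithine carrier, had 7.94, 8.80 and 10.8 FPKM with HYOU1 shRNA, against 8.26, 9.53 and 8.64 FPKM with control shRNA, and its groups overlapped (log2 fold change 0.05, adjusted p = 0.841). SLC25A13, the mitochondrial carrier citrin that exports aspartate for ASS1, fell. It had 13.2, 14.2 and 11.6 FPKM with HYOU1 shRNA, against 29, 25.5 and 25.1 FPKM with control shRNA, without overlap, and its log2 fold change was -1.03 (SE 0.13, adjusted p = 0.00901). Without HYOU1 shRNA replicates 1, 2 and 3 its adjusted p was 0.0688, 0.0614 and 0.0706, and without each control library it was still called.

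Among 57 other genes of the pathway in the table, in 6 lists, 42 were tested, of which 1 rose, 2 fell and 39 did not pass, beside 12.3% of all tested genes called. Their median log2 fold change was 0.06. In the aspartate and asparagine list 1 of 7 rose. That gene was SLC25A22, a mitochondrial glutamate carrier, which had 19.4, 18.8 and 20.0 FPKM with HYOU1 shRNA, against 6.58, 11.1 and 12.2 FPKM with control shRNA (log2 fold change 1.00, SE 0.24, adjusted p = 0.0419). It was at 0.73 without control replicate 1 (adjusted p = 0.000149) and at 0.58 after the GC correction (adjusted p = 0.00121). The rise held in 12 of 20 alternatives, and its adjusted p was 0.148, 0.147 and 0.161 without HYOU1 shRNA replicates 1, 2 and 3 and 0.0854 without control replicate 2. In the arginine and polyamine list 1 of 7 fell, AGMAT, an enzyme of the ureohydrolase family. AGMAT had 6.37, 6.49 and 7.71 FPKM with HYOU1 shRNA, against 10.1, 10.5 and 9.92 FPKM with control shRNA (log2 fold change -0.57, SE 0.13, adjusted p = 0.0352). Its groups did not overlap, but its adjusted p was between 0.0707 and 0.162 without any 1 library other than control replicate 1.

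None of 10 tested genes of glutamine and glutamate metabolism passed (limma), where 3 were higher and 2 lower at an unadjusted p under 0.05. Voom called 1 rise among them, beside 1806 of all 12448 tested genes. CAD, which uses glutamine for pyrimidine synthesis, had 33.8, 33.2 and 38.2 FPKM with HYOU1 shRNA, against 19.7, 27.1 and 26.3 FPKM with control shRNA (log2 fold change 0.53, adjusted p = 0.0737). GMPS, which uses it for GMP synthesis, had 35.2, 34.4 and 33.4 FPKM with HYOU1 shRNA, against 28.5, 23.5 and 21.9 FPKM with control shRNA (log2 fold change 0.49, adjusted p = 0.0600). Both genes had no overlap between the groups. Without control replicate 1, 5 of the 10 genes were higher and 3 lower past the threshold, beside 44.3% of all tested genes called. After the GC correction 4 were higher and 3 lower, beside 40.6%.

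None of 6 genes of proline and ornithine metabolism passed (limma), and none had an unadjusted p under 0.05. Voom, which called 1806 of all 12448 tested genes, called none of them. The most abundant genes of this list were PYCR1, the last enzyme of proline synthesis, and ALDH18A1, the first enzyme from glutamate, with log2 fold changes of 0.38 (adjusted p = 0.309) and 0.11 (adjusted p = 0.529). PYCR1 was at 0.12 without control replicate 1 and at 0.018 after the GC correction, and ALDH18A1 at 0.036 and 0.12 in the same fits. None of 10 genes of the ATF4 axis, the pathway known to act on ASNS, passed either (limma), with 1 lower at an unadjusted p under 0.05 and none called by voom. Without control replicate 1, 1 of the 10 was higher and 4 were lower past the threshold, beside 44.3% of all tested genes called, and after the GC correction none was higher and 4 were lower, beside 40.6%. ATF4 had 64.3, 69.0 and 68.8 FPKM with HYOU1 shRNA, against 70.0, 83.2 and 86.9 FPKM with control shRNA, without overlap (log2 fold change -0.24, adjusted p = 0.221). It was at -0.34 without control replicate 1 (adjusted p = 0.00288) and at -0.43 after the GC correction (adjusted p = 0.00653). The most abundant of the axis were DDIT4, an mTORC1 inhibitor, at a log2 fold change of 0.50 (adjusted p = 0.397), and CEBPB, a C/EBP transcription factor, at 0.03 (adjusted p = 0.943). DDIT4 was at 0.038 without control replicate 1 (adjusted p = 0.731) and at 0.27 after the GC correction (adjusted p = 0.335). CEBPB was at -0.26 without control replicate 1 (adjusted p = 0.00629), at -0.48 after the GC correction (adjusted p = 0.00626) and at -0.10 with quantile normalization (adjusted p = 0.785), so no direction can be given for it. CHAC1, a glutathione-degrading enzyme, had the lowest log2 fold change of the axis, at -1.21 (adjusted p = 0.0628). It was at -1.54 without control replicate 1 (adjusted p = 0.000699) and at -1.60 after the GC correction (adjusted p = 0.00112). Without overlap, 1 gene of the axis was higher, TRIB3, and 3 were lower, beside 44.4% of all tested genes without overlap. TRIB3 had a log2 fold change of 0.33 (adjusted p = 0.238). It was at 0.16 without control replicate 1 (adjusted p = 0.111) and at -0.0061 after the GC correction (adjusted p = 0.966). CHAC1, ATF4 and TRIB3 were named after their values were seen.

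**Figure D4:**
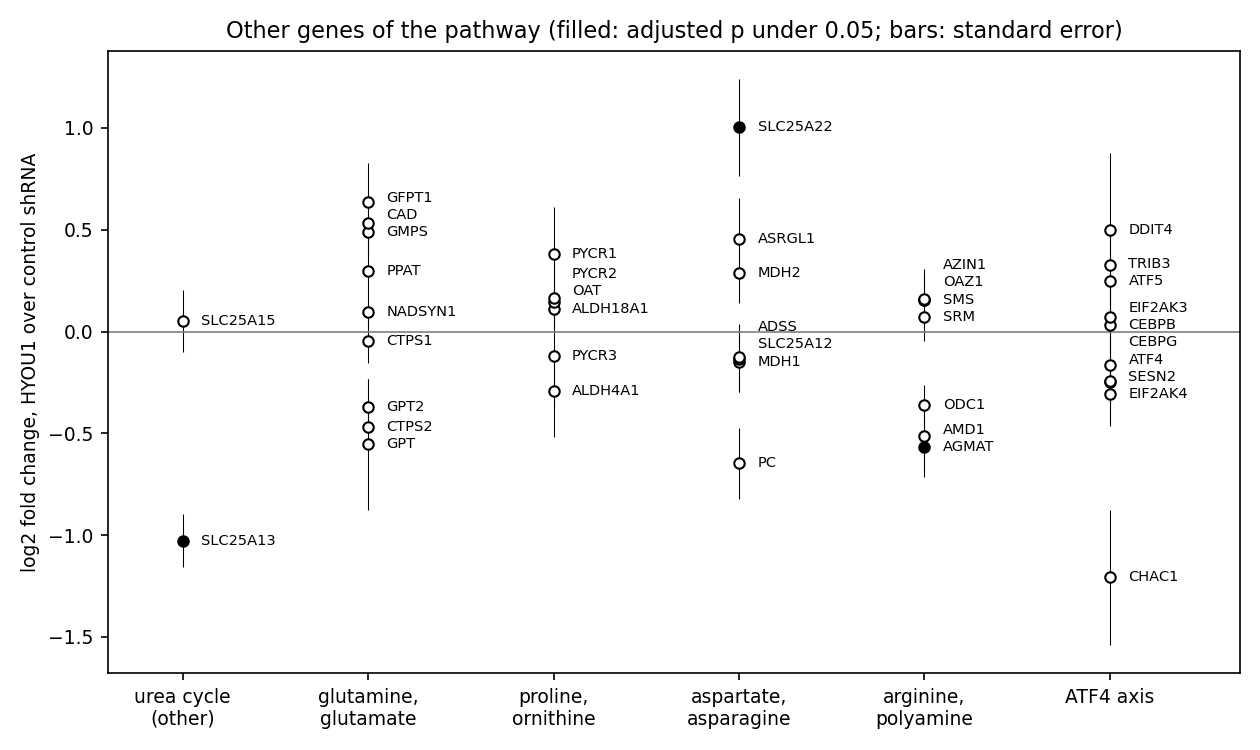
Log2 fold changes, HYOU1 shRNA over control shRNA on log2(FPKM + 0.1), of tested genes in 6 lists of the pathway, with bars of 1 standard error and 1 of the 42 genes not drawn. Filled symbols had an adjusted p under 0.05: SLC25A13 at -1.03 and AGMAT at -0.57 fell, and SLC25A22 at 1.00 rose.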

How the data were processed

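Per the labels' protocols, oligo(dT) beads enriched mRNA, which was fragmented and primed with random hexamers. The authors deposited FPKM values of 58735 genes with gene lengths and coordinates, and all gene identifiers and coordinates matched GENCODE release 29 on GRCh38. No source used here names the aligner or the counting tool, or says whether strand was used. FPKM times gene length came in whole multiples of 1 step for 100.00% of values (tolerance 0.01 fragments), which gave the fragments behind each value. Floors of 3 fragments cover counting error only.

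Groups were taken from sample titles. Values as deposited were set to log2(FPKM + 0.1), which understates changes of low genes, genes averaging 1 FPKM or more were kept, and limma 3.58.1 (R 4.3.3, lmFit and eBayes with trend and robust priors) compared the groups, with Benjamini-Hochberg adjustment over all the tested genes. Every adjusted p is from limma unless another is named. Whole numbers of fragments were recovered for each gene, so voom on the fragments was an alternative. Its library sizes were the totals behind the FPKM values, not the sums of recovered fragments. For the GC correction, deviations from the gene mean were smoothed per library against the GC content of the longest transcript (lowess, span 0.3) and the fitted curve was subtracted, and with it any real difference that follows GC content. It left 6 tested genes without a GC value as they were. Shared exon bases were counted over the principal transcript of each gene. The main fit was run on simulated data with 200 changed genes in each of 5 runs. Noise was drawn independently for each gene and library, without an outlying library or a shift that follows GC content. The runs therefore say nothing on how the fit handles those features of the data.

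The members, the gene lists and the rule for naming genes were chosen with earlier results of these data known. The rule named all 9 members, HYOU1, up to 3 called genes of each list or the 2 most abundant where none was called, the highest pseudogene of a member, and the 3 genes nearest to the called member with the largest change. Alternatives were a pseudocount of 1 or 0.01, a mean filter of 0.1 or 5 FPKM or no filter, TPM, quantile and median-of-ratios scaling, a fit of protein-coding genes only, a fit with no variance trend, a replicate block, voom, the GC correction with and without that block, and leaving out each library. The filters, the protein-coding fit, the fit with no variance trend and the replicate block left the CPS1 fold change unchanged. Median-of-ratios scaling hardly moved it, at -1.97. A count of alternatives is thus not a count of independent checks. The values of 1 gene of the pathway lists are not reported here.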

Additional observations from a re-analysis of the deposited data

How the results depend on the processing

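HYOU1 fell in all 20 alternatives, between -4.59 and -3.95 on the log2 scale, and CPS1 between -2.07 and -1.85. Of 12448 tested genes 1526 were called, against 938 with a filter of 5 FPKM, 770 with no filter, 5048 after the GC correction, 4504 after it with the replicate block, and 49 to 5518 when 1 library was left out, the lowest without HYOU1 shRNA replicate 3 and the highest without control replicate 1. Members called were 2, against 1 with each of the filters of 0.1, 5 (where ARG2 was not tested) and none, 6 after the GC correction alone or with the replicate block, and 1 to 6 when 1 library was left out. Other pathway genes called were 3, against 1 with no filter, 5 with quantile normalization, 5 with voom, 23 after the GC correction, 21 after it with the replicate block, and 0 to 22 when 1 library was left out. Signs turned for ASL, at -0.19 after the GC correction with or without the replicate block and -0.17 without control replicate 1 (up to 0.24 without another library), and for CEBPB, at -0.10 with quantile normalization, -0.48 after the GC correction with or without the replicate block and -0.26 without control replicate 1 (up to 0.19 without another library). The causes were not tested. The labels state no pairing by replicate number. Deviations of same-numbered libraries correlated across genes at 0.12, -0.09 and 0.17. HYOU1 shRNA replicates 1 and 3 correlated best with the control of their own number, and replicate 2 did not. With 3 libraries per group these correlations cannot decide whether the samples were paired. With the replicate block 940 genes, 1 member and 1 other pathway gene were called. Few fragments per library limit the precision of ASNS and ARG2.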

Other observations

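Pseudogenes of the members were almost silent in these libraries. Of 29 rows named as pseudogenes of a member, 11 were above 0 in at least 1 library and only GLUD1P3 reached a mean of 1 FPKM, at 2.44 FPKM. The 11 pseudogenes of ASS1 summed to 0.025% of the ASS1 level, and the single pseudogene of ASL, ASLP1, to 5.95% of the ASL level. No pseudogene of CPS1, ARG2 or GOT1 was in the table under such a name.

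SHLD2, a DNA repair gene on the strand opposite to GLUD1, covers 15.3% of the main GLUD1 transcript. It had 7.61, 5.84 and 6.10 FPKM with HYOU1 shRNA, against 12.8, 7.88 and 6.90 FPKM with control shRNA, and its groups overlapped (log2 fold change -0.45, limma, adjusted p = 0.268). ADSL, which makes fumarate in purine synthesis, shares 30.6% of its main transcript with AL022238.4 on the same strand. Its values were 0.291, 0.299 and 0.201 FPKM with HYOU1 shRNA, against 0.717, 0.901 and 0.878 FPKM with control shRNA, without overlap and below the minimum for the test. Both genes were named after their values were seen.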
